A study of Mus musculus with 4 samples.

Results

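The DLX, GSX and SP interneuron factors examined here are 8 protein-coding genes (Dlx1, Dlx2, Dlx5, Dlx6, Gsx1, Gsx2, Sp8 and Sp9) and the antisense RNA gene Dlx6os1. They were chosen by name, as transcription factors of the GABAergic olfactory interneuron lineage and an RNA of the same locus. The 9 symbols have 10 entries among the 35147 genes of the deposited table, since Dlx6os1 is listed under 2 Ensembl identifiers. All 10 entries passed the minimum of a mean of 1 FPKM (fragments per kilobase, on the authors' scale for each library) that 17651 genes passed. The starting tissue was the ventricular-subventricular zone (V-SVZ) of CD1 mice, wild type and aged postnatal day 7 or 8. One group was precipitated with an antibody against 4E-T, a P-body protein that binds the cap-binding factor eIF4E, and the other with control IgG. Each of 2 numbered experiments gave 1 library of each antibody, so there were 2 libraries per group and 4 in all. The comparison asks which RNAs come down with 4E-T beyond what IgG brings down. No input RNA was used here, so IgG serves as the only background.

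The V-SVZ lines the lateral ventricles and makes neuroblasts that migrate to the olfactory bulb and become mostly GABAergic interneurons. In this lineage Gsx2 and Gsx1 act in precursors, where Gsx2 stands upstream of the Dlx genes. Dlx1 and Dlx2, and then Dlx5 and Dlx6, encode homeodomain proteins that drive GABAergic differentiation and migration, in part through the GABA-synthesis genes Gad1 and Gad2. Sp8 and Sp9 encode zinc finger proteins needed by migrating neuroblasts and olfactory bulb interneurons.

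IgG replicate 1 was the shallowest library, with 14421019 recovered gene reads, and 4E-T replicate 2 the deepest, with 28749439. Genes at 0 reads ran the other way for these libraries, at 77 in IgG replicate 1 and 2689 in 4E-T replicate 2. IgG replicate 2 had 676 and 4E-T replicate 1 had 442. The 2 IgG libraries correlated at r = 0.922 and the 2 4E-T libraries at 0.973 (Pearson, log2(FPKM + 1), tested genes). IgG replicate 2 correlated more closely with 4E-T replicate 2 (0.947) than with IgG replicate 1. Values without each library are therefore given where they matter. Whether the experiments drew on different animals is not in the labels, so the p-values reflect spread between libraries that may be technical. The 9 symbols together took 0.112% of gene reads in IgG replicate 1 (Wilson 95% interval 0.11 to 0.113) and 0.0935% in IgG replicate 2 (0.0923 to 0.0947). They took 0.146% in 4E-T replicate 1 (0.145 to 0.148) and 0.0886% in 4E-T replicate 2 (0.0875 to 0.0897). The summed share was thus highest in one 4E-T library and lowest in the other. These and the later intervals cover counting error only.

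Dlx5, Gsx2 and Dlx2 RNAs were higher with 4E-T than with IgG in both experiments, while Sp8, Sp9 and the main Dlx6os1 entry were not. On the log2(FPKM + 1) scale, 0 of the 10 entries passed in either direction when antibody was the only term (limma, Benjamini-Hochberg adjusted p under 0.05). In that fit 0.00567% of all tested genes were called higher and 0% lower, and 2 entries were higher at an unadjusted p under 0.05, as were 11.2% of tested genes. With the experiment number as a block, 4 entries rose (Dlx5, Gsx2, Dlx2 and Dlx6) and 0 fell, against 17.5% of tested genes called higher and 4.44% lower. The blocked fit leaves 1 residual degree of freedom and takes its spread largely from other genes. After quantile normalization with the block 3 rose (Dlx5, Gsx2 and Dlx2) and Dlx6os1 fell, against 10.4% of genes higher and 9.23% lower. The blocked fit on recovered reads called the same 3 genes higher and 0 lower, against 13.2% and 11.5%. With antibody as the only term, leaving out IgG replicate 2 gave calls for 2 entries, Dlx5 and Gsx2, against 13.8% of genes higher and 6.20% lower. The authors' deposited table likewise has 3 of the entries at an adjusted p under 0.05, Dlx2, Dlx5 and Gsx2, all higher. Of the 22881 genes given an adjusted p in the authors' comparison, 10.7% were higher and 2.61% lower at that threshold. The median log2 fold change of the 10 entries was 0.52, against 0.18 over all tested genes. Within experiment 1 the medians were 0.78 and 0.32, and 7 of the 10 entries were above the median of all genes. Within experiment 2 they were 0.003 and 0.08, and 4 of the 10 were above it, so the excess of the median was in experiment 1. Without IgG replicate 1 the median of the entries was 0.16, against 0.002 over all tested genes. Rescaling moved both: the medians were 0.30 and -0.02 after quantile normalization, and 0.26 and -0.08 in the blocked fit on reads.

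**Figure D1:**
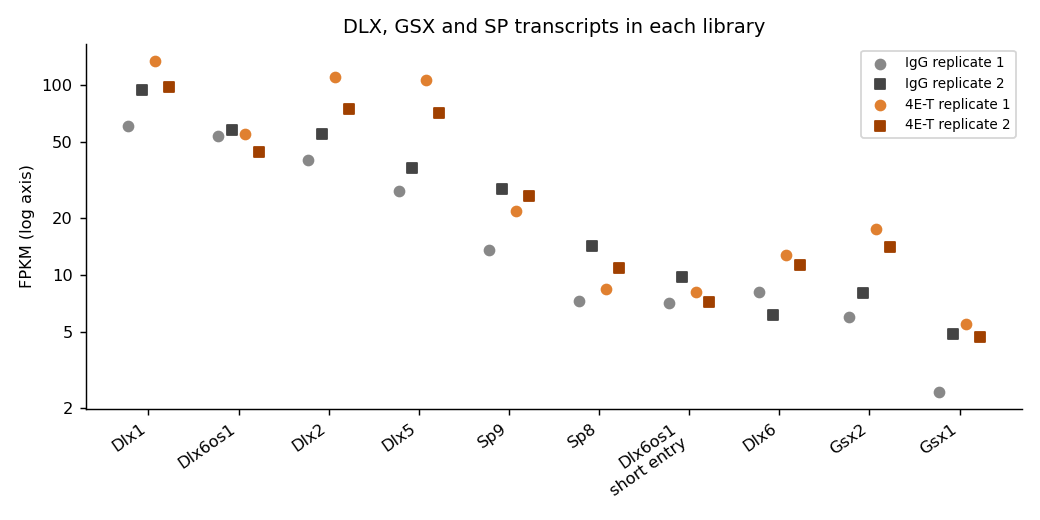
FPKM (log axis) of each entry in each library, with IgG libraries in grey and 4E-T libraries in orange, ordered by the IgG mean. Both 4E-T points lie above both IgG points for Dlx1, Dlx2, Dlx5, Dlx6 and Gsx2, from 70.7 FPKM upward against at most 36.5 for Dlx5, and the groups overlap for the other entries.

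Per kilobase, Dlx1 was the most abundant of the set in both groups, with a mean of 77.1 FPKM in IgG and 115 in 4E-T. In IgG it was followed by Dlx6os1 (55.7), Dlx2 (47.6), Dlx5 (32.0) and Sp9 (21.0), and Gsx1 was lowest at 3.67. The ranges of Dlx6os1 and Dlx2 overlapped in IgG, as did those of Dlx5 and Sp9, of Sp9 and Sp8, and of Sp8 with the short Dlx6os1 entry, Dlx6 and Gsx2. In 4E-T the order was Dlx1, Dlx2 (92.2), Dlx5 (88.3) and then Dlx6os1 (49.6), so Dlx2 and Dlx5 stood above Dlx6os1 there. The ranges of Dlx1, Dlx2 and Dlx5 overlapped with their neighbours in that order. Levels within 1 library compare genes, whereas levels across libraries also carry the scale of the deposited FPKM, which differs between libraries. That scale was not in proportion to gene reads.

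For the first transcribed bases, which lie next to the cap, 7 of the 9 members matched a RefSeq start in build GRCm38.p6. They are shown because 4E-T acts through the cap-binding protein, with 10 bases before the start in lower case, the first 10 transcribed bases in capitals and the next 10 in lower case.
Gsx2 (chr5:75075591-75075620, plus strand): cgggggacgtGAGGACCAACcctctccagg
Gsx1 (chr5:147188686-147188715, plus strand): ctagcgctggCCAGCACCTCgcccgctccg
Dlx1 (chr2:71529435-71529464, plus strand): tccggggtccCAGGCGTTGGgggcgggcga
Dlx2 (chr2:71546735-71546764, minus strand): gagcctgcccGGCAGACAATcgtaaagctg
Sp9 (chr2:73271916-73271945, plus strand): ctcctcgcacTTAGGCTGAGttttgccggc
Sp8, first listed start (chr12:118846319-118846348, plus strand): gggcaaacacACCTCCTCCAggacgtgcac
Dlx6os1, start nearer Dlx5 (chr6:6869514-6869543, minus strand): cccaatgtctGCTTCAAATTggatggcact
Among the 10 capitals, C or T bases numbered 3 in Gsx2 and Dlx2, 4 in Dlx1 and Sp9, 7 in Gsx1, 8 in this Sp8 start and 6 in this Dlx6os1 start. The median over all 32851 RefSeq windows was 5. A start with C followed by 4 pyrimidines, the form of terminal oligopyrimidine RNAs, was in 0 of the 10 listed starts of these members and in 2.51% of all windows. The homeodomain core TAATTA, which reads alike on both strands, was in both 300-base windows of Dlx6os1 and in 1 of Sp8, against 5.29% of all windows. These matches are descriptions of the annotated sequence and were not measured in the libraries. The starts shown for Dlx1, Sp8 and Dlx6os1 lie inside the RefSeq spans given below for these genes, not at the edge of the span.

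Gsx2, the precursor homeodomain factor, lies on chromosome 5 (GRCm38.p6, 75075601 to 75077893) and overlaps no other RefSeq gene. It had 6.03 and 8.02 FPKM in IgG replicates 1 and 2 and 17.4 and 14.1 FPKM in 4E-T replicates 1 and 2. Both 4E-T values were above both IgG values. Its log2 fold change was 1.06 (limma; SE 0.36, adjusted p = 0.262 without and 0.000637 with the block), from 212 and 290 IgG reads and 681 and 536 4E-T reads. As a share of gene reads it was 2.01 times higher in experiment 1 (95% interval 1.72 to 2.36) and 1.59 times higher in experiment 2 (1.38 to 1.84). Gsx1, its relative, lies on the same chromosome (147188696 to 147190947) and was the least abundant member. It had 2.43 and 4.91 FPKM in IgG and 5.54 and 4.73 FPKM in 4E-T, so the groups overlapped. Its log2 fold change of 0.44 did not pass (limma; SE 0.35, adjusted p = 0.202 with the block and 0.665 without it). The Gsx1 difference was 0.93 in experiment 1 and -0.04 in experiment 2, and without IgG replicate 1 its log2 fold change was 0.05.

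Dlx1 and Dlx2 lie 9426 bases apart on chromosome 2, Dlx1 at 71528113 to 71533981 and Dlx2 at 71543408 to 71546754. Dlx2, which acts with Dlx1 early in the lineage, had 40.3 and 54.9 FPKM in IgG and 110 and 74.5 FPKM in 4E-T. The groups did not overlap. The fitted log2 fold change of Dlx2 was 0.93 (limma; SE 0.48, adjusted p = 0.0149 in the blocked fit and 0.450 in the other). The ratio of read shares was 1.90 in experiment 1 (95% interval 1.81 to 2.0) and 1.23 in experiment 2 (1.17 to 1.29), so the direction was shared and the size was not. Dlx1 had 60.5 and 93.7 FPKM in IgG and 134 and 97.0 FPKM in 4E-T. The higher IgG value and the lower 4E-T value were close to each other, both in experiment 2. The log2 fold change of Dlx1 was 0.59 (limma; SE 0.49, adjusted p = 0.162 with the block and 0.694 without it). Its ratio of read shares was 1.54 in experiment 1 (1.49 to 1.59) and 0.940 in experiment 2 (0.912 to 0.968), on opposite sides of 1. Dlx1 overlaps the antisense gene Dlx1as, and no source used here states whether the authors counted by strand, so reads of this pair may not be told apart. Dlx2 overlaps no RefSeq gene.

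Dlx5 and Dlx6 lie 9830 bases apart on chromosome 6, at 6877801 to 6882068 and 6863334 to 6867970. Dlx5, a later DLX factor of the lineage, had the largest change of the set. It had 27.5 and 36.5 FPKM in IgG and 106 and 70.7 FPKM in 4E-T, from 826, 1127, 3545 and 2301 reads. Each 4E-T library was well above both IgG libraries. On the log2(FPKM + 1) scale the change was 1.42 (limma; SE 0.47, adjusted p = 6.4e-05 in the blocked fit and 0.254 in the other). The ratio of read shares was 2.69 in experiment 1 (95% interval 2.49 to 2.91) and 1.76 in experiment 2 (1.64 to 1.89). Of all tested genes, 1.84% had a larger log2 fold change than Dlx5, and 2.49% did after quantile normalization. Leaving out 1 library at a time gave Dlx5 a log2 fold change of 1.13 to 1.71.

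Dlx6, its neighbour, had 8.12 and 6.17 FPKM in IgG and 12.8 and 11.3 FPKM in 4E-T. The groups did not overlap in FPKM, and Dlx6 was the only entry whose signed difference, 4E-T minus IgG, was higher in experiment 2 (0.78) than in experiment 1 (0.60). The fitted change of Dlx6 was 0.69 on the same scale (limma; SE 0.34, adjusted p = 0.0353 in the blocked fit and 0.435 in the other). It no longer passed after quantile normalization (log2 fold change 0.31, limma adjusted p = 0.286) and on recovered reads (0.46, limma adjusted p = 0.113). As a share of gene reads Dlx6 overlapped between the groups, with a ratio of 1.10 in experiment 1 (95% interval 0.972 to 1.25) and 1.66 in experiment 2 (1.44 to 1.92).

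**Figure D2:**
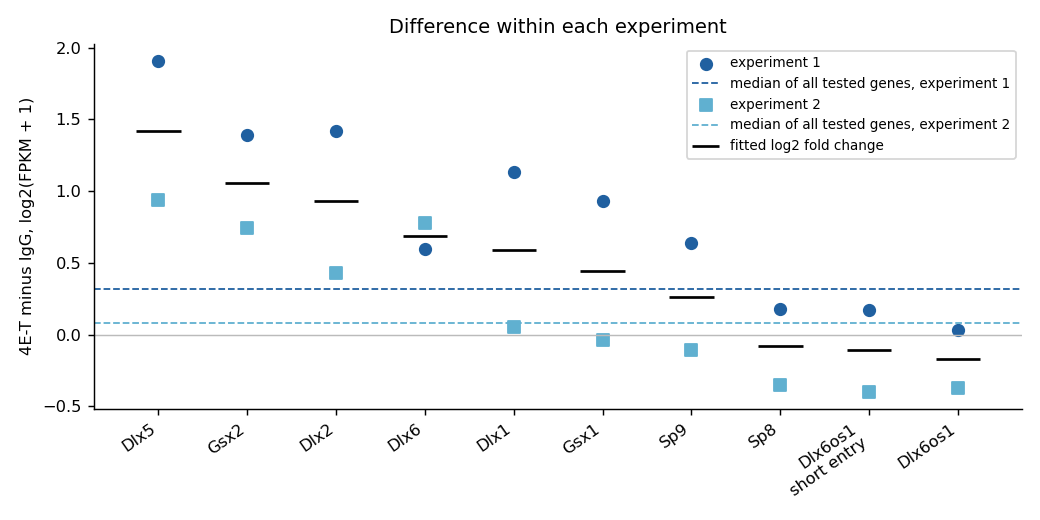
Difference of log2(FPKM + 1) between 4E-T and IgG within experiment 1 (dark circles) and experiment 2 (light squares) for each entry, with the fitted value as a black bar. Dashed lines mark the medians of all tested genes, 0.32 in experiment 1 and 0.08 in experiment 2; Dlx5, Gsx2, Dlx2 and Dlx6 lie above both lines.

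Dlx6os1, also known as Evf2, is a long non-coding RNA transcribed antisense to Dlx6 that regulates the neighbouring Dlx5 and Dlx6 genes in the mouse forebrain. Its RefSeq span (chromosome 6, 6820543 to 6871627) covers Dlx6 whole and ends 6173 bases before Dlx5. It had 53.8 and 57.5 FPKM in IgG and 54.9 and 44.4 FPKM in 4E-T. The groups overlapped, and 4E-T replicate 2 was the lowest library. Fitted over the 4 libraries, the log2 fold change was -0.17 (limma; SE 0.45, adjusted p = 0.769 with the block and 0.95 without it). After quantile normalization with the block it was -0.53 (limma adjusted p = 0.0129), and on recovered reads with the block -0.47 (limma adjusted p = 0.135). Its share of gene reads was lower with 4E-T in both experiments, with ratios of 0.712 (95% interval 0.686 to 0.739) and 0.701 (0.674 to 0.728). The shares overlapped between the groups, since IgG replicate 2 lay below 4E-T replicate 1. The second Dlx6os1 entry (ENSMUSG00000098326.1) is a short feature, counted over 0.0355 of the length of Dlx1, with 22 to 31 reads per library. Its value on the log2 scale was -0.11 (limma adjusted p = 0.821 in the blocked fit, 0.958 in the other). Dlx6 and Dlx6os1 share sequence on opposite strands, so without strand their reads may not be told apart, while Dlx5 lies outside both.

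**Figure D3:**
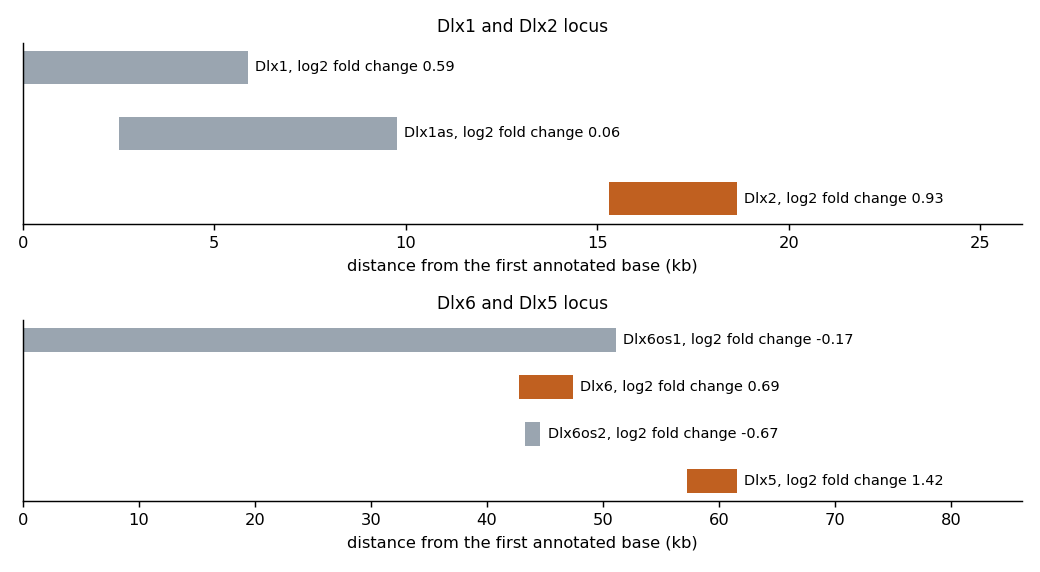
Annotated spans of the DLX pairs and their antisense genes as distance in kb from the first annotated base of each locus, with the log2 fold change beside each bar and genes called higher in the blocked fit in orange. Dlx2 (0.93), Dlx6 (0.69) and Dlx5 (1.42) are called, and the antisense genes lie at 0.06, -0.17 and -0.67.

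Sp8 and Sp9 had no call in any fit over the 4 libraries. Sp8 (chromosome 12, 118846288 to 118852578) had 7.32 and 14.2 FPKM in IgG and 8.43 and 10.9 FPKM in 4E-T. Both 4E-T values lay between the IgG values. The change was -0.08 on the log2 scale (limma; SE 0.40, adjusted p = 0.874 with the block and 0.977 without it). As a share of gene reads Sp8 was lower with 4E-T in both experiments, with ratios of 0.804 (95% interval 0.727 to 0.890) and 0.698 (0.645 to 0.756). Sp9 (chromosome 2, 73271926 to 73275771) had 13.6 and 28.3 FPKM in IgG and 21.7 and 26.1 FPKM in 4E-T, again inside the IgG range. For Sp9 the fitted log2 fold change was 0.26 (limma; SE 0.46, adjusted p = 0.907 without and 0.583 with the block), and -0.13 after quantile normalization. The Sp9 ratio of read shares was 1.12 in experiment 1 (1.04 to 1.19) and 0.838 in experiment 2 (0.795 to 0.884).

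In FPKM, 5 entries had both 4E-T libraries above both IgG libraries and 0 had the reverse, against 32.6% and 8.13% of tested genes. As shares of gene reads the counts were 3 (Dlx2, Dlx5 and Gsx2) and 2 (Sp8 and the short Dlx6os1 entry), against 22.9% and 25.9%.

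Ratios between members within a library do not depend on the scale of the library. Dlx5 per Dlx6os1 was 0.511 and 0.634 in IgG and 1.93 and 1.59 in 4E-T. Dlx5 was thus below Dlx6os1 in each IgG library and above it in each 4E-T library. Dlx5 per Dlx2 was nearly the same in the 2 libraries of a group, at 0.682 and 0.664 in IgG and 0.965 and 0.949 in 4E-T. The ratio was 1.42 times higher with 4E-T in experiment 1 and 1.43 times higher in experiment 2. Dlx2 per Dlx1 was 0.667 and 0.586 in IgG and 0.822 and 0.768 in 4E-T. Neither ratio overlapped between the antibodies. Dlx5 per Dlx6 was 3.39 and 5.91 in IgG and 8.25 and 6.25 in 4E-T, where IgG replicate 2 and 4E-T replicate 2 were close. Gsx2 per Gsx1 was 2.48 and 1.63 in IgG and 3.14 and 2.97 in 4E-T. Dlx5 per Sp8 was 3.76 and 2.56 in IgG and 12.6 and 6.45 in 4E-T, and Sp8 per Sp9 was 0.538 and 0.503 in IgG and 0.388 and 0.419 in 4E-T. With 2 libraries per group these ratios were not tested, and no background of other gene pairs was computed.

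**Figure D4:**
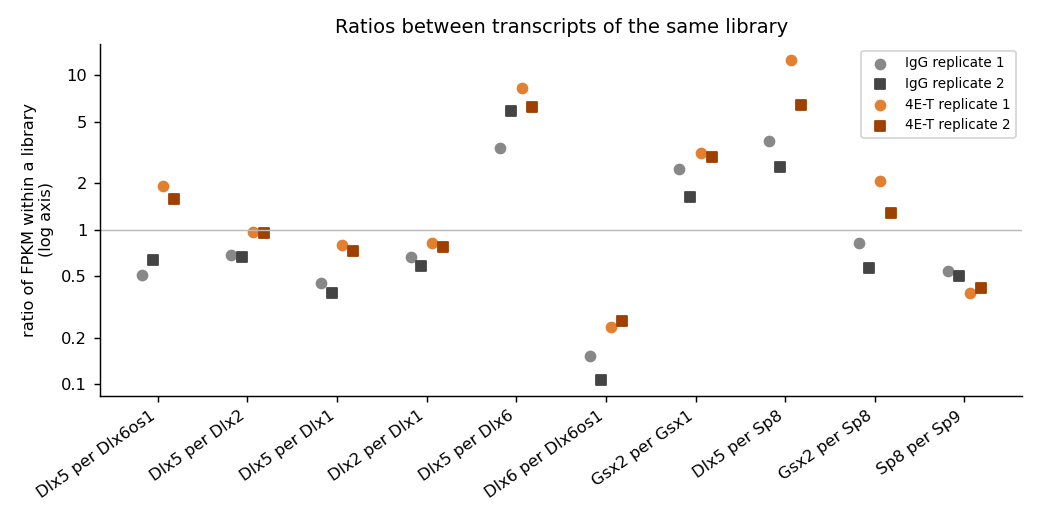
Ratios of FPKM between pairs of transcripts within each library (log axis), IgG in grey and 4E-T in orange. Both 4E-T points lie above both IgG points for each pair shown except Sp8 per Sp9, where they lie below, at 0.388 and 0.419 against 0.538 and 0.503.

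The genes whose centred log2(FPKM + 1) profile over the 4 libraries lay closest to that of a member were found for 7 members. For Dlx5 they were Utp3, a nucleolar protein gene, with a root mean square difference of 0.0612, and Tmem181a (0.0681), and 9 genes lay under 0.1. For Dlx2 they were Bicra (0.0328) and Foxm1 (0.0538), a transcription factor of dividing cells, with 13 genes under 0.1. For Gsx2 they were Zfp759 (0.0208) and Gm43662 (0.0297), with 78 genes under 0.1. For Dlx1 they were Gm15351 (0.0506) and Zfp438 (0.0561), with 10 genes under 0.1. For Dlx6 they were Gm43138 (0.00566) and Ryr3 (0.00982), but 109 genes lay under 0.1. Sp8 was close to Spryd7 (0.0137), and Sp9 closest to Tle1 (0.0165) and Fbl (0.0178). As many as 965 genes lay under 0.1 of Sp8 and 633 of Sp9, so 4 libraries do not single out a partner for those profiles.

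Of the other DLX and SP genes, 6 of 11 were tested, and with the block 1 rose and 0 fell. Sp2 rose, from 3.86 and 5.43 FPKM in IgG to 9.78 and 8.60 in 4E-T (log2 fold change 0.86, limma adjusted p = 0.312 without and 0.00461 with the block). Sp2 was not called after quantile normalization with the block. Sp3 and Sp1, broadly expressed relatives, did not pass, with log2 fold changes of 0.47 and 0.28. Dlx6os2, an RNA inside the Dlx6 span, had 4.06 and 1.43 FPKM in IgG and 2.07 and 0.581 in 4E-T. In FPKM its change of -0.67 on the log2 scale did not pass (limma adjusted p = 0.0646 in the blocked fit, 0.605 in the other), and it was called lower on recovered reads with the block. The median of the 6 was 0.24.

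Other transcription factors of the lineage (19 of 20 tested) had a median log2 fold change of 0.25, and with the block 5 rose and 0 fell. With quantile normalization and the block 4 rose and 1 fell, and on recovered reads with the block 4 rose and 2 fell. Tshz1, needed for olfactory bulb interneurons, had a log2 fold change of 1.05 (limma adjusted p = 0.00302 with the block), and of 0.49 without IgG replicate 1. Pax6 (0.99) and Sall3 (0.75), which also rose, are named after their values were seen; Sall3 was at 0.14 without IgG replicate 1 and was not called after quantile normalization or on reads. Nr2f2, among the 3 lowest, was at -0.23 and did not pass with the block in FPKM.

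Transcripts of the interneurons' products (15 of 15 tested) had a median of 0.15, close to that of all genes, and with the block 0 rose and 1 fell. Gad1 and Gad2, which encode the GABA-synthesizing enzymes and are DLX targets, were at log2 fold changes of 0.53 and 0.61 and did not pass (limma adjusted p = 0.218 and 0.133 with the block). Gad1 had 45.4 and 79.1 FPKM in IgG and 78.3 and 96.9 in 4E-T, and the groups overlapped. Pak3, a kinase gene that the DLX factors repress, had 0.64 and did not pass. Synpr, a synaptic vesicle protein gene, fell from 40.6 and 70.3 FPKM in IgG to 31.4 and 29.2 FPKM in 4E-T (log2 fold change -0.80, limma adjusted p = 0.514 without and 0.0358 with the block). Cxcr4, a chemokine receptor of migrating neurons, and Slc32a1, the vesicular GABA transporter, had -0.23 and -0.17 and did not pass.

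The precipitates came from bulk tissue and no input RNA was used. More cells of a type, more RNA per cell and more RNA brought down by the antibody thus cannot be told apart. Markers of all 9 other cell types and states listed were found, and 0 of them were at 0 reads in any library. Markers of dividing cells, 6 of 10 of which rose and 0 fell with the block, summed to 148 to 195 FPKM in IgG and 357 to 400 in 4E-T. Their median log2 fold change was 1.18. Striatal neuron markers, which stand for a neighbouring GABAergic tissue, had 3 of 10 higher with the block (0 without it, 2 after quantile normalization with the block, 2 on reads with the block), a median of 0.51 (0.16 and 0.24 in the last 2 fits) and sums of 425 to 1021 FPKM in IgG and 713 to 1432 in 4E-T. Endothelial and mural markers had 5 of 10 lower with the block (1 after quantile normalization, 9 on reads) and a median of -0.70. They summed to 141 to 203 FPKM in IgG and 71.7 to 113 in 4E-T. Their log2 fold changes ran from -1.31 to 0.06 over the 4 libraries. Without IgG replicate 1 they ran from -0.94 (Ly6c1) to 0.21 (Tek), with Flt1 (0.10) and Kdr (0.09) also above 0. The medians were 0.24 for pallial glutamatergic, 0.17 for medial ganglionic eminence (MGE) interneuron, -0.13 for astroglial and stem cell, -0.07 for oligodendrocyte, -0.11 for microglial and -0.18 for ependymal markers. After quantile normalization the last 4 medians were -0.47, -0.39, -0.49 and -0.39, and on reads -0.43, -0.36, -0.41 and -0.50. With the block in FPKM 0, 0, 1 and 1 of 10 of these markers were called lower. The counts lower were 6, 3, 7 and 4 after quantile normalization with the block, and 4, 1, 3 and 5 on reads with the block. In each blocked fit 2 of 10 oligodendrocyte markers were called higher. The part of these shifts in the values of the DLX, GSX and SP genes was not tested.

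**Figure D5:**
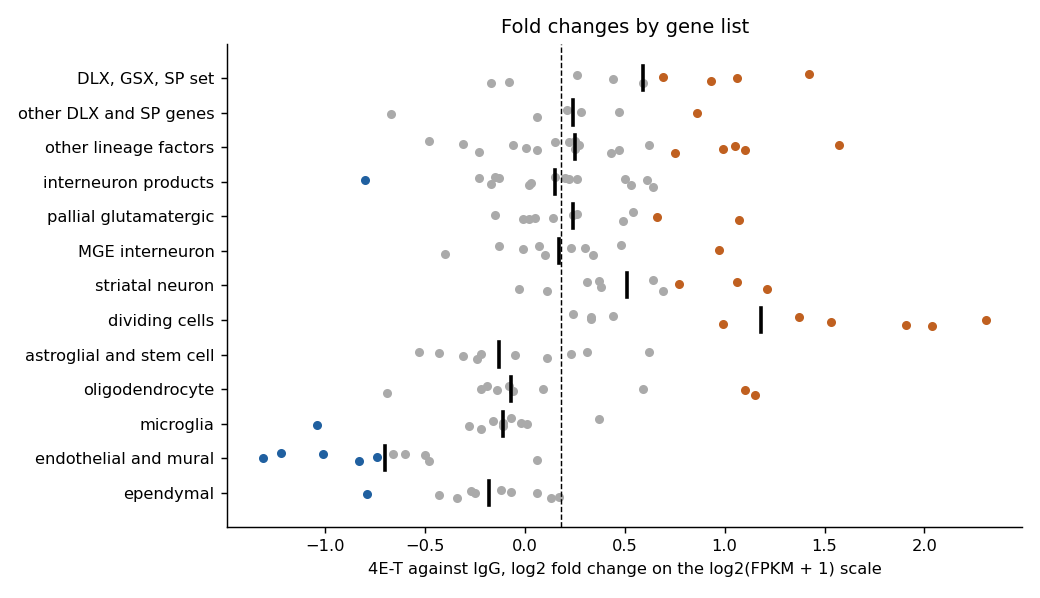
Log2 fold change of each tested gene (points), by list, with the list median as a black bar and the median of all tested genes (0.18) as a dashed line. Orange and blue points are called higher and lower in the blocked fit; the DLX, GSX and SP set, with Dlx6os1 shown once, spans -0.17 to 1.42.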

How the data were processed

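Per the labels' protocols, the MAGNA RIP kit served for RNA isolation, SMART-Seq v4 for cDNA and Nextera XT for libraries. DESeq2 1.26.0, HTSeq 0.6.1p2, STAR 2.6.0c, Trim Galore 0.5.0, FastQC 0.11.5 and build mm10 are listed in the submitters' processing notes. The authors deposited FPKM per library. Per the file headers, the authors' comparison adds a mean normalized signal, a log2 fold change, a Wald score, a p-value with its adjusted value, and a linear fold ratio. No source used here states the annotation release, the strand setting or the per-library denominator of the FPKM. The relative size of that denominator was recovered from the deposited values. Gene reads per unit of it, with IgG replicate 1 set to 1, were 1.671 (IgG replicate 2), 1.432 and 1.84 (4E-T, in replicate order). Folds in FPKM thus differ from ratios of read shares. For Dlx1 these were 2.21 and 1.54 within experiment 1, but 1.03 and 0.940 within experiment 2.

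Genes with a mean of at least 1 FPKM entered the test, limma 3.58.1 (R 4.3.3) on log2(FPKM + 1) with trend and robust moderation. Antibody was the only term, the test was two-sided, and Benjamini-Hochberg adjustment ran over all tested genes. The +1 understates changes of low genes. Whole reads were recovered from the FPKM and the deposited mean signal (100% of values whole within 0.001) and fitted with limma-voom, with library scaling by TMM, a trimmed mean of log ratios, over the tested genes. The titles number the experiments, and libraries of 1 experiment deviated together (correlation across genes 0.672 on FPKM, 0.491 after quantile normalization), so the number was taken to pair them. Fits were checked on simulated data. The simulated FPKM was scaled to the total reads of each library, so the check does not cover the scale of the deposited FPKM.

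Members and lists were chosen with earlier results of these data known. Named genes are all members and, per other list, the 3 highest and the 3 lowest with a negative log2 fold change. Profile neighbours are the 2 genes of smallest root mean square difference. Some genes that this rule names are not reported here.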

Additional observations from a re-analysis of the deposited data

How the results depend on the processing

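Without a block and over all 4 libraries, a pseudocount of 0.1, no filter, quantile normalization and recovered reads each gave 0 members called. With the experiment number as a block the members called higher were 4 (FPKM), 3 (quantile normalization), 3 (reads) and 4 (reads with TMM over all rows, an alternative chosen after seeing the data), and those lower were 0, 1, 0 and 0. All genes called numbered 1 higher and 0 lower without the block. They numbered 3090 and 784 with the block, 1843 and 1630 with block and quantile normalization, 2327 and 2035 on reads with the block, and 3907 and 841 with TMM over all rows. No filter, quantile normalization or reads without a block gave 0 higher. Leaving out 1 library gave 0 to 2 members higher (Dlx5 and Gsx2, without IgG replicate 2), 0 lower, and 2 to 2441 genes higher and 0 to 1094 lower. Leaving out 1 library moved Sp9 from -0.24 to 0.77, Sp8 from -0.52 to 0.35 and the short Dlx6os1 entry from -0.32 to 0.09. Directions that reversed were those of Sp9 (-0.13 after quantile normalization with or without the block, -0.003 on reads with the block, -0.24 without IgG replicate 1), Sp8 (0.09 without 4E-T replicate 1, 0.35 without IgG replicate 2) and the short Dlx6os1 entry (0.09 without IgG replicate 2); the cause was not tested. Of 120 comparisons of single entries with their reported value, 96 kept direction and side of the threshold, 17 passed it newly and these 7 reversed. The planned edgeR and DESeq2 fits were not run; recovered reads were fitted with limma-voom instead. A group left with 1 library is assumed to vary like the other. The low read number of the short Dlx6os1 entry and of Gsx1 (91 to 231 reads) limits what they can show.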

Other observations

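The number of reads behind 1 FPKM gives the length over which a gene was counted, relative to another gene. With Dlx1 at 1, that length was 0.346 for Dlx5, 0.405 for Gsx2, 0.431 for Gsx1, 0.539 for Dlx6, 0.602 for Dlx2, 1.09 for Sp8, 1.10 for Sp9 and 1.12 for Dlx6os1. The short Dlx6os1 entry, at 0.0355, was the shortest of all, with a log2 fold change of -0.11 and no call. Leaving that entry out, the 4 members called higher with the block lie among the 5 shorter ones, and Gsx1 is the shorter member without a call. Over these 9 genes Spearman's rho between counted length and log2 fold change was -0.87, and Pearson's r, on log2 length, was -0.82. With the short entry, over all 10, rho was -0.47 and r was 0.03, so the relation rests on leaving it out. Over all 17651 tested genes rho was 0.23, of the opposite sign. The points share the same 4 libraries and are not independent, so the correlations are descriptions with no p-value. In the fit on recovered reads with the block rho was -0.87 for the 9 genes, -0.47 for the 10 entries and 0.23 for all tested genes.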
